A study of Mus musculus with 4 samples.

Results

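Complement C1q, the receptors for its downstream peptides and several regulators of the cascade were examined in primary smooth muscle cells of mouse aorta (VSMCs, which give the arterial media its contractile tone). The genes were C1qa, C1qb, C1qc, Cfp, C3ar1 and C5ar1, which myeloid cells are known to express, and C3, C4b and Cd55, which stromal cells such as smooth muscle cells, fibroblasts and endothelium also express. A gene was included through rows of the array that the platform annotation assigns to that gene symbol alone. Of the 9 genes, 8 had such a row, each exactly 1, among 22180 genes measured, and C3 was not analysed here.

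The cells came from the thoracic aortas, freed of adventitia, of Apoe-null mice, whose lack of the lipoprotein component apolipoprotein E raises plasma cholesterol, after 3 months on a Western diet, and were cultured for 5 days. Control cells were SM22α-Cre(−)Mmp14(fl/fl)Apoe(−/−): both Mmp14 alleles, which encode the membrane-anchored metalloproteinase MT1-MMP, were floxed but Cre was absent. Knockout cells were SM22α-Cre(+)Mmp14(fl/fl)Apoe(−/−): Cre recombinase was driven by the promoter of SM22α (Tagln), active in smooth muscle, so deletion is expected in cells that use that promoter. Each group had 2 arrays, from separate pairs of mice per the series' design text, and the spread behind each p-value holds variation of mouse, culture and hybridisation alike. The age of the mice is not given in the sources used here. Values are log2 expression, so a difference of 1 is a doubling.

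C1q is a secreted recognition protein built from A, B and C chains, and binds immune complexes, dying cells and altered lipoproteins. It starts the classical pathway through the proteases C1r and C1s, of which C1s cleaves C4 and C2, and so an enzyme forms that splits C3. Macrophages are its main source in many tissues, including atherosclerotic arteries. The released C3a and C5a peptides act on G protein-coupled receptors, properdin stabilises the C3-splitting enzyme of the alternative pathway, and CD55 on host cells speeds its decay.

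The array medians lay between 3.01 and 3.05, and Pearson's r between arrays over 41345 rows, which are not independent replicates, was 0.974 to 0.982. Mmp14 read 8.71 and 9.05 in control cells and 8.27 and 8.19 in knockout cells, a difference of -0.65 (SE 0.17; limma, adjusted p = 0.319). Probes of that row may lie beyond the floxed exons, which limits it as a check of the labels. Of the smooth muscle markers that define the labelled cell type, Acta2 lay between 10.89 and 11.40 and Tagln between 9.77 and 10.46 on the 4 arrays. The more specific Myh11 lay between 4.98 and 5.50, and Myocd, Des and Synpo2 lay between 3.12 and 3.87, close to the level of 3.02 used as a filter on dim genes. Transcripts of macrophages were also present in every array, with Lyz2 between 11.00 and 11.34 and Cd68 between 9.68 and 10.71.

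The 6 myeloid complement genes all read higher in both knockout arrays than in both control arrays, with log2 differences from 0.76 to 1.55 and a median of 1.09, whereas Cd55 read lower by 0.98 and C4b differed by 0.01. All 8 measured genes passed the filter on dim genes, a mean of at least 3.02 over the 4 arrays. None passed the test over all 12550 genes (limma, Benjamini-Hochberg adjusted p of 0.144 to 0.990), and neither did any other gene: limma called 0 genes, or 0.0%, and 1465 genes had an unadjusted p under 0.05. Groups without overlap, higher in knockout cells, were found for 6 of 6 myeloid genes and for 16.7% of all genes tested, and groups without overlap, lower in knockout cells, for Cd55 and for 27.5% of all genes. An unadjusted p under 0.05 was reached by 5 of 6 myeloid genes as higher (4.89% of all genes) and by Cd55 as lower (6.78% of all genes). The median difference of all genes tested was -0.05. With 2 arrays in each group, a two-sided exact permutation test cannot give a p below 0.333.

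**Figure D1:**
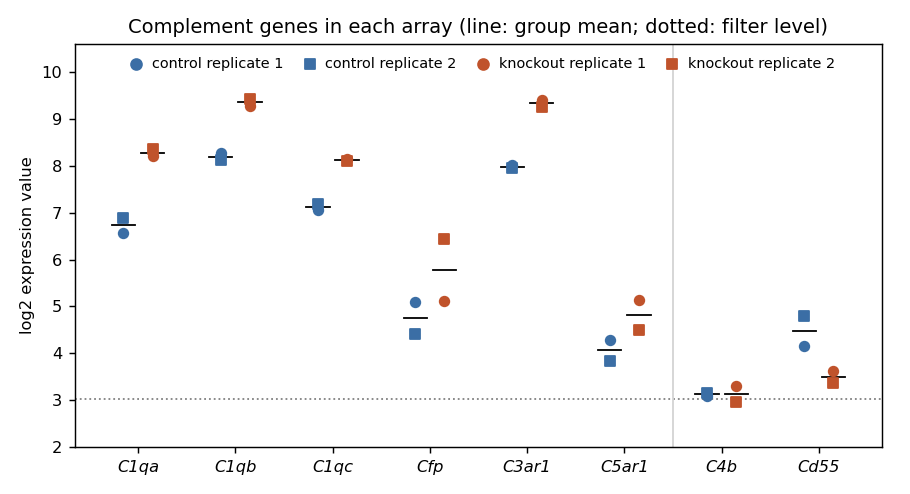
Log2 expression values (vertical axis) of the 8 measured complement genes in each of the 4 arrays, with control arrays in blue and knockout arrays in red, circles for replicate 1, squares for replicate 2 and lines for group means. C1qa, C1qb, C1qc and C3ar1 form well-separated pairs, the values of Cfp nearly touch at 5.10 and 5.12, Cd55 runs the other way and C4b lies at the dotted filter level of 3.02.

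The genes of the C1q chains lie side by side in the mouse genome, in the order C1qb, C1qc and C1qa on chromosome 4, with 0 other protein-coding genes between neighbours in RefSeq (GRCm38.p6). C1qa, the A chain, read 6.58 and 6.89 in control cells and 8.21 and 8.35 in knockout cells. These average 6.73 ± 0.22 and 8.28 ± 0.10 (SD, n = 2 each). The log2 difference was 1.55 with an SE of 0.17 and a 95% interval of 1.10 to 2.00, which is 2.93-fold. The separation between groups was several times the distance between arrays of the same group.

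C1qb, the B chain, read 8.26 and 8.13 in control cells and 9.28 and 9.43 in knockout cells. Its difference was 1.16 (SE 0.15, 95% interval 0.77 to 1.54), or 2.23-fold. C1qc, the C chain, read 7.05 and 7.19 against 8.15 and 8.11, a difference of 1.00 (SE 0.14, 95% interval 0.64 to 1.37), or 2.01-fold. The adjusted p-values of the C1q genes by limma were 0.147, 0.155 and 0.161 in the order A, B, C.

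The A, B and C chains are assembled in equal number in the protein, so the differences of their transcripts were also set against each other within arrays. The difference of C1qa exceeded that of C1qc by 0.55 and that of C1qb by 0.39, with no overlap between groups in either case, but each two-sided exact permutation p was 0.333 with n = 2 per group, the lowest this design allows. C1qb exceeded C1qc by 0.16, with overlapping groups (exact permutation p = 0.667). The direction of all 3 genes was the same with any single array left out: the C1qa difference then ran from 1.40 to 1.71, that of C1qb from 1.08 to 1.24 and that of C1qc from 0.94 to 1.07.

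The upstream sequences of C1qb, C1qc and the receptor gene C3ar1 are shown because these genes read higher together, with that of Cd55 as the gene that read in the opposite direction. Each is the 250 bases before the transcript start in RefSeq (GRCm38.p6, minus strand, written 5′ to 3′), at chr4:136886201-136886450 for C1qb, chr4:136892915-136893164 for C1qc, chr6:122856158-122856407 for C3ar1 and chr1:130462745-130462994 for Cd55. Of the 9 genes, 7 had a promoter entry, and C1qa and C4b had none. Capitals mark matches on either strand to GAGGAA (a core of PU.1 sites), TGCTGA (a partial site of Maf factors), TGANTCA (AP-1) or TTGCNNAA (a C/EBP type site).
C1qb: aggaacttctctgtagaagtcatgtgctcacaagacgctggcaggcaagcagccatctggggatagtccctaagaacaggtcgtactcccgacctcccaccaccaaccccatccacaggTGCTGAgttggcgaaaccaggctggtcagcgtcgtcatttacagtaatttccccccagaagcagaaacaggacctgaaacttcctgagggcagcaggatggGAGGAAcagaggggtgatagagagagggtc
C1qc: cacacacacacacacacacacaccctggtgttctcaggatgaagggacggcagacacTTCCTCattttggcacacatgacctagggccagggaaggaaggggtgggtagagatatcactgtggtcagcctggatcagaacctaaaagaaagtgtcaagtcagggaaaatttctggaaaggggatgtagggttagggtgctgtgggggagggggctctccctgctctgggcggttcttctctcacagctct
C3ar1: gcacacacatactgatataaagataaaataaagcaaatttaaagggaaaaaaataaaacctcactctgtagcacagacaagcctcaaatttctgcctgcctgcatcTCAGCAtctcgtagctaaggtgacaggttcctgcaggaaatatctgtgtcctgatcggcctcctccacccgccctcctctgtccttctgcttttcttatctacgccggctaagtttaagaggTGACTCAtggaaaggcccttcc
Cd55: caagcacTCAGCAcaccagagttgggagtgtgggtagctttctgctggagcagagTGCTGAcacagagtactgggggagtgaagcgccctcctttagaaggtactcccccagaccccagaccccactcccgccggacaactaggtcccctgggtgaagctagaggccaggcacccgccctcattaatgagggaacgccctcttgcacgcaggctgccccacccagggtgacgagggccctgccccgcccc

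C1qb held a GAGGAA that begins 30 bases before the start and C1qc its reverse complement, beginning 193 bases before the start. The same letters occur in 23.3% of 32851 windows of this length. TGCTGA or its reverse complement was found in C1qb, C3ar1, C5ar1, C3 and, at 2 places, in Cd55. These are among 7 windows searched, against 16.1% of all windows. It thus stood upstream of genes that read higher and of Cd55, which read lower, while C3 had no measured direction. C3ar1 held TGACTCA beginning 22 bases before the start (6.75% of windows hold this motif), and the only TTGCNNAA match was in C3 (9.56% of windows). The Cfp window held none of the 4 motifs. A match is a description of the letters and no measure of binding.

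C3ar1, the receptor for C3a, read 8.02 and 7.95 in control cells and 9.40 and 9.27 in knockout cells. Its difference of 1.35 (SE 0.14, 95% interval 0.98 to 1.71), or 2.54-fold, had the lowest adjusted p among the 8 genes (limma, 0.144), and it ran from 1.28 to 1.41 with any single array left out. C5ar1, the receptor for C5a that recruits and activates neutrophils and monocytes, was much closer to the filter level, at 4.29 and 3.84 in control cells and 5.14 and 4.50 in knockout cells. The nearest arrays of the groups were thus 4.29 and 4.50.

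The C5ar1 difference was 0.76 (SE 0.29, 95% interval 0.01 to 1.50; limma, adjusted p = 0.422), and its unadjusted p stayed under 0.05 in 6 of 12 alternative settings. Without knockout replicate 1 it was 0.44. The difference of C3ar1 exceeded that of C5ar1 by 0.59, without overlap between groups (exact permutation p = 0.333, n = 2 each). The adjacent gene C5ar2, which encodes the other C5a receptor, read between 3.12 and 3.19 in all arrays, with a difference of 0.02.

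Cfp, which encodes properdin, the positive regulator of the alternative pathway made by neutrophils, monocytes and macrophages, was the most uneven of the myeloid genes. It read 5.10 and 4.41 in control cells and 5.12 and 6.44 in knockout cells. Control replicate 1 and knockout replicate 1 were thus nearly equal, and the groups overlapped once each array was centred on its median.

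The Cfp difference of 1.03 (SE 0.50, 95% interval -0.28 to 2.33; limma, adjusted p = 0.506) was carried by knockout replicate 2. It was 0.37 without that array, 0.68 without control replicate 2 and 1.68 without knockout replicate 1. Knockout replicate 2 also had the highest summed log2 level of 8 neutrophil markers, 29.24, against 24.13 in knockout replicate 1 and 24.19 and 24.54 in control cells. The higher sum came from Mmp8, S100a8 and Retnlg, which read 5.40, 6.67 and 3.43 in that array and 3.16, 4.72 and 2.29 in knockout replicate 1. Csf3r and Camp were lower in knockout replicate 2 than in knockout replicate 1, and Cxcr2, at 3.46, lay between the control values. Of the 8 neutrophil markers, 4 were below the filter level. The sums of macrophage markers and of T and B cell markers were also highest in knockout replicate 2, at 146.90 and 22.61. The part of any of these cells in the Cfp value was not tested.

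**Figure D2:**
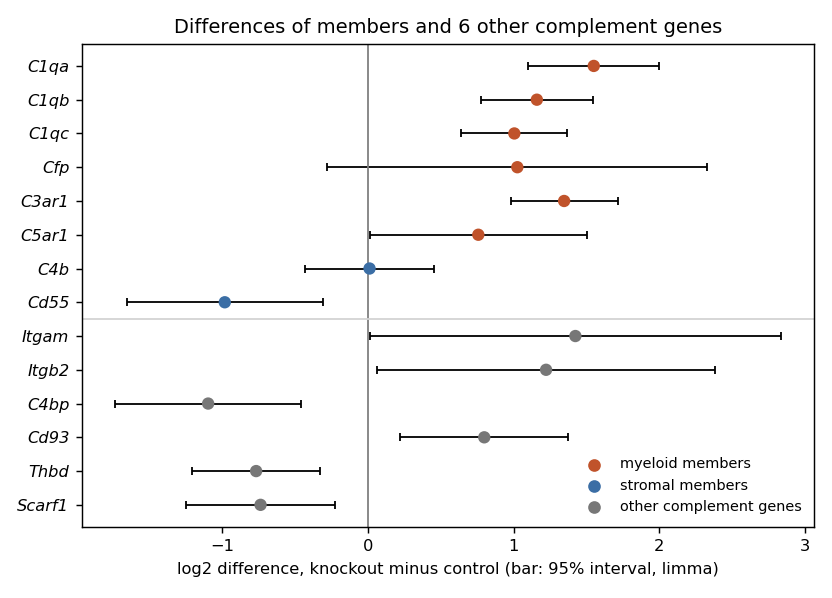
Log2 difference, knockout minus control, with its 95% interval from limma (horizontal axis), for the 6 myeloid genes (red), the 2 stromal genes (blue) and 6 other complement genes named by a fixed rule (grey). The intervals of C1qa, C1qb, C1qc and C3ar1 lie wholly above 0.64, that of Cfp spans 0 and those of Cd55, C4bp, Thbd and Scarf1 lie below 0.

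Cd55, the decay-accelerating factor, is a membrane-anchored protein that protects the cells that carry it from C3 and C5 cleavage. It read 4.16 and 4.79 in control cells and 3.62 and 3.37 in knockout cells. Both knockout values were below both control values, by at least the distance from 4.16 to 3.62, while the control arrays themselves were spread more widely than the knockout arrays. The means were 4.48 ± 0.45 and 3.49 ± 0.18 (SD, n = 2 each). The difference was -0.98 (SE 0.26, 95% interval -1.65 to -0.31; limma, adjusted p = 0.318), or 0.506 times the control level. With any single array left out the difference ran from -1.30 to -0.67. The knockout values lay near the filter level of 3.02, so the size may be understated.

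The difference of C1qa exceeded that of Cd55 by 2.53 and that of C3ar1 exceeded it by 2.33, each without overlap between groups (exact permutation p = 0.333, n = 2 each, the lowest possible). Cd55b, the adjacent paralog, was below the filter level in all arrays (1.85 to 2.20). Probes of such near copies may share target, so the values of either gene are uncertain to that extent.

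C4b encodes complement C4, the source of the C4b fragment in the classical pathway enzyme. It read 3.09 and 3.15 in control cells and 3.29 and 2.97 in knockout cells, close to the filter level and with overlapping groups. The difference was 0.01 (SE 0.17, 95% interval -0.43 to 0.46; limma, adjusted p = 0.990), it was -0.02 after median centring, and the interval leaves room for changes up to 0.46. The paralog C4a lay between 1.59 and 2.20, and cross-hybridisation between these near-identical genes is possible. With C3 not analysed, the stromal side of the contrast rested on a dim C4b and on Cd55, itself near the filter level in knockout cells.

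Myeloid complement genes and macrophage markers were higher in the same arrays. Of 20 macrophage markers, 19 were measured and 18 of these read higher in knockout cells, 17 without overlap (16.7% of all genes tested), with a median difference of 1.04. Cd163, a scavenger receptor of resident macrophages, was the exception, below the filter level in every array and different by -0.03. Aif1 differed by 0.10 with overlapping groups. The markers of highest mean, Lyz2, Cd68 and Tyrobp, differed by 0.22, 0.82 and 0.71, each less than the median of the list. The summed log2 level of the list was 124.73 and 124.97 in control cells and 142.25 and 146.90 in knockout cells. In bulk RNA, a different number of cells of a type and a different amount of RNA per cell cannot be told apart.

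When the mean deviation of the macrophage markers in each array was subtracted from each gene, the difference left was 0.51 for C1qa, 0.31 for C3ar1, 0.12 for C1qb, -0.03 for C1qc, -0.01 for Cfp and -0.28 for C5ar1. Groups remained apart for C1qa and C3ar1, touched for C1qb, with deviations of 0.013 and 0.016 in the nearest arrays, and overlapped for C1qc, Cfp and C5ar1. The same amount per array was taken from every gene, so the smaller size of these 6 values was fixed by the arithmetic. It carries no information on their source. C4b, at 0.01 with overlapping groups before subtraction, was at -1.03 without overlap after it. For Cd55, which went the other way, subtraction gave -2.02.

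Cd55 and endothelial markers were lower in the same arrays. All 10 endothelial markers were measured, and 8 read lower in knockout cells, each without overlap, among them Emcn (-2.48), Cdh5 (-2.51) and Pecam1 (-2.49). Of the 9 tested, 7 read lower without overlap (27.5% of all genes tested). Tek, the other of the 8, was below the filter level in every array. Kdr (0.32) and Vwf (0.29) read higher. The summed log2 level was 51.79 and 47.41 in control cells and 38.56 and 40.59 in knockout cells. Cd55 was higher in control replicate 2 than in control replicate 1, the reverse of the order of these sums. The part of endothelial cells in the Cd55 value was not tested. The summed level of 10 smooth muscle markers overlapped between groups, at 67.28 and 65.06 in control cells and 68.25 and 64.18 in knockout cells. Of these markers, 3 read lower without overlap (27.5% of all genes tested) and 0 higher, with the largest difference in Smtn, -0.55.

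**Figure D3:**
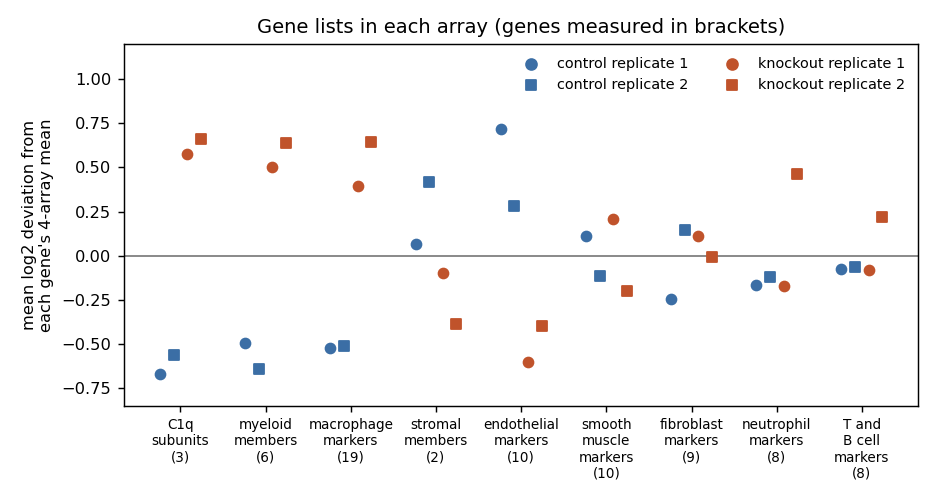
Mean log2 deviation of each gene list from its genes' own 4-array means (vertical axis) in each array, with the number of genes measured in brackets. The C1q, myeloid and macrophage lists separate the groups in the same direction and endothelial markers separate them in the other. Smooth muscle and fibroblast markers do not separate them. Neutrophil markers, at 0.46, and T and B cell markers, at 0.22, stand out in knockout replicate 2 alone.

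Of 55 other complement genes on a list by role, 50 were measured and 25 of them passed the filter. Over all 50 the median difference was 0.06, beside -0.01 over all measured genes, well short of the C1q genes. Of the 50, 35 read higher and 15 lower, many of them below the filter level. Among all 12550 genes tested, 5234 read higher and 7316 lower. That set leaves out genes below the filter level, so these splits are not like for like. The median difference of the 25 tested complement genes was 0.08, beside -0.05 over all genes tested. Without overlap, 8 of the 25 tested read higher (16.7% of all genes tested) and 6 lower (27.5%). None passed the adjustment over all genes, and among the 25 tested an unadjusted p under 0.05 was reached by 3 as higher (4.89% of all genes) and 3 as lower (6.78% of all genes). Without knockout replicate 1 the median of the 50 was -0.03. The genes named next are the 6 tested genes without overlap that had the largest differences. Other genes in these paragraphs were chosen after their values were seen.

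The cell-surface receptors held the largest positive differences. Itgam, the alpha chain of complement receptor 3, which binds C3 fragments on opsonised particles, read 5.71 and 5.88 in control cells and 6.42 and 8.02 in knockout cells, a difference of 1.42 (SE 0.54; limma, adjusted p = 0.424). Itgb2, the beta chain it shares with complement receptor 4, read 7.31 and 7.11 against 7.79 and 9.08, a difference of 1.22 (SE 0.44; limma, adjusted p = 0.405). Both were highest in knockout replicate 2, the array with the highest sums of neutrophil, macrophage, and T and B cell markers. Itgam is itself on the macrophage list. The part of any of these cells in the 2 values was not tested.

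Without knockout replicate 2 the differences of Itgam and Itgb2 were 0.62 and 0.58, and without knockout replicate 1 they were 2.23 and 1.87. Itgax, the alpha chain of complement receptor 4, overlapped between groups, at 5.55 and 6.90 in control cells and 6.28 and 8.75 in knockout cells. Cd93, once described as a C1q receptor and present on myeloid and endothelial cells, read 6.06 and 5.90 against 6.52 and 7.04, a difference of 0.80 (SE 0.22; limma, adjusted p = 0.335).

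Proteins of wider expression that bind C1q did not share these sizes. C1qbp, which binds the globular heads of C1q, differed by -0.20, the chaperone gene Calr by -0.12 and the endocytic receptor gene Lrp1 by 0.03, at group means between 8.33 and 10.14. Scarf1, a scavenger receptor of endothelium and phagocytes that binds C1q, read 3.53 and 3.84 in control cells and 2.79 and 3.10 in knockout cells, a difference of -0.74 (SE 0.20; limma, adjusted p = 0.318). Its knockout mean of 2.95 lay below the filter level, so the size may be understated.

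Among regulators, C4bp and Thbd read lower together with Cd55. C4bp, the C4b-binding protein that blocks the classical pathway enzyme, lies near Cd55 on chromosome 1, with 1 protein-coding gene, Zp3r, between them. It read 4.87 and 4.83 in control cells and 4.07 and 3.44 in knockout cells, a difference of -1.10 (SE 0.24, 95% interval -1.73 to -0.46; limma, adjusted p = 0.266). Thbd, thrombomodulin, a receptor of the endothelial surface that dampens coagulation and complement, read 8.40 and 8.66 against 7.67 and 7.86, a difference of -0.77 (SE 0.17; limma, adjusted p = 0.262).

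Differences of Cr1l and Cd59a, other guards of the cell surface, were small. Cr1l (Crry), the rodent regulator of C3 cleavage on most cells, read 7.60 and 7.65 in control cells and 7.79 and 7.74 in knockout cells, a difference of 0.14, and Cd59a, which blocks the membrane attack complex, differed by 0.08. Serping1, the soluble C1 inhibitor that removes C1r and C1s from C1q, overlapped between groups, with 7.77 and 8.26 against 9.28 and 7.87, a difference of 0.56.

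Of the proteases that act with C1q, C1ra was the most precisely measured. C1ra read 5.40 and 5.23 in control cells and 5.40 and 5.24 in knockout cells, a difference of 0.01 (SE 0.15, 95% interval -0.39 to 0.41). The interval of C1ra does not reach that of C1qa, C1qb or C1qc. C1s1 differed by 0.25 with overlapping groups, between 3.86 and 5.35, and its 95% interval of -1.14 to 1.63 covers the differences of all 3 C1q genes. That of C1rb, -0.85 to 0.86, overlaps the intervals of C1qb and C1qc. Masp1, a protease of the lectin pathway, read 5.84 and 5.77 against 5.75 and 4.59, so its difference of -0.64 came from knockout replicate 2. Of 6 terminal pathway genes, which build the membrane attack complex, 5 were below the filter level and the other, C8b, differed by 0.11.

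**Figure D4:**
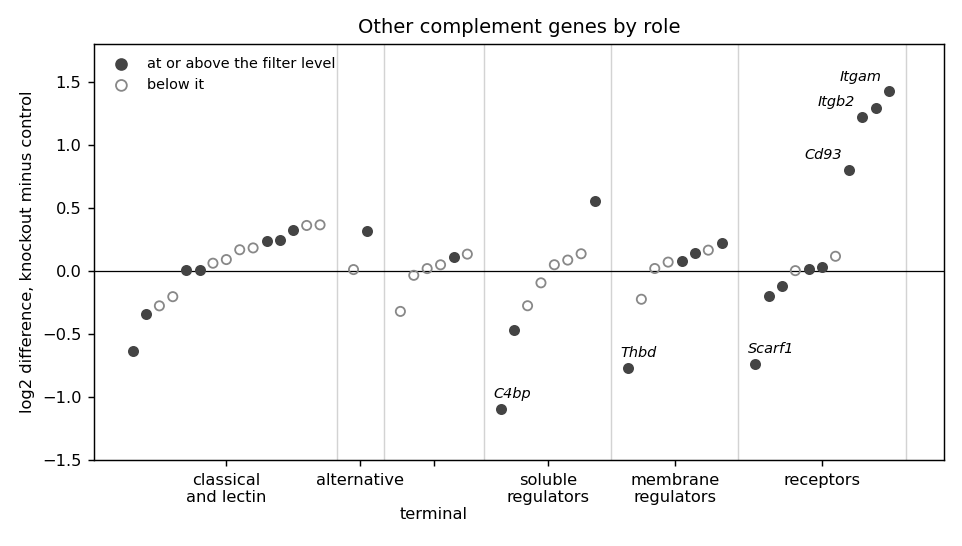
Log2 difference, knockout minus control (vertical axis), of 50 other complement genes ordered within each role, filled where the gene's mean reached the filter level and open where it did not. Differences of receptors range from -0.74 to 1.42, those of terminal components from -0.32 to 0.13, and C4bp is the lowest of the soluble regulators at -1.10.

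The genes whose profile over the 4 arrays was most like the mean of C1qa, C1qb and C1qc, by the root mean square difference of their deviations from their own means, were Coro1a, Has2, Hk3, Fermt3 and Dhrs9, at 0.06 to 0.07 log2 units among 12542 genes searched. Coro1a encodes a leukocyte coronin and Fermt3 the integrin activator kindlin-3 of blood cells, and Has2 is a hyaluronan synthase. Coro1a read 5.12 and 5.16 in control cells and 6.27 and 6.30 in knockout cells. For Cd55 they were Loxl4, Ttll7, Foxc1, Chn1 and Pcdh7, at 0.07 to 0.10, and Loxl4, a lysyl oxidase family member, read 4.82 and 5.54 against 4.23 and 4.15. A profile of 4 values picked from so many genes is a description only.

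Among all genes tested, 0.375% had a larger positive difference than C1qa and 1.98% a larger one than C1qc, and 1.52% had a lower value than Cd55.

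**Figure D5:**
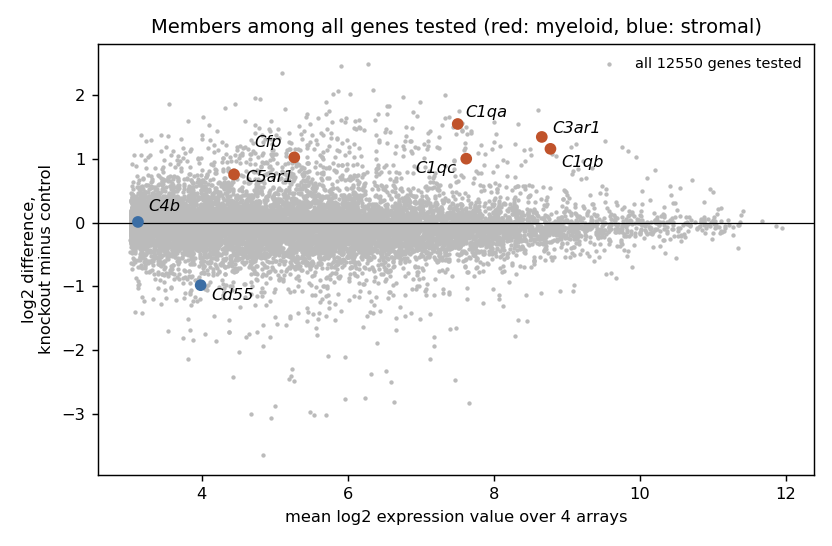
Mean log2 expression over the 4 arrays (horizontal axis) and log2 difference, knockout minus control (vertical axis), of all 12550 genes tested (grey), with the myeloid genes in red and the stromal genes in blue. The myeloid genes lie from 0.76 (C5ar1) to 1.55 (C1qa) and Cd55 at -0.98, outside the range of -0.59 to 0.59 that holds 90.0% of genes, and other genes of similar mean lie farther out.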

How the data were processed

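Total RNA (10 ng) was amplified and hybridised to Mouse Gene ST arrays, per the labels' protocols. The authors' deposited values are log2 expression, from RMA as the submitters' processing notes name it, with the log base read off their span of 1.17 to 12.4. Software, chip definition and genome build: not given in the sources used here. Of 41345 rows, 23521 had 1 gene symbol in the platform annotation, and 23328 of these matched RefSeq (GRCm38.p6) by gene number, with 0 symbols changed. The row with the highest mean was kept per gene, and genes with a mean under the median row mean (3.02) were not tested.

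limma 3.58.1 (R 4.3.3; lmFit, eBayes) was fitted to 12550 genes, knockout minus control, without covariates, with Benjamini-Hochberg adjustment and 95% intervals. It was tested on simulated data. List medians cover every measured member and have no test. Named were the members, Mmp14, 6 other complement genes, marker genes of highest mean and the 5 genes most alike in profile. Markers of highest mean not described elsewhere were Cald1 (difference -0.17), Col1a2 (0.24), Cd8a (-0.02) and Cd4 (0.09). Cd163, Aif1, Kdr, Vwf, Tek, Myh11, Myocd, Des, Synpo2, Smtn, Dpt, Col3a1, Retnlg, Csf3r and Camp were named after their values were seen. Members and lists were chosen with earlier results of these data known. Alternatives were a replicate block, other filters, scalings, row rules, variance models, array weights and leaving out each array. Arrays have no sequencing depth, and their number limits the precision. Plots used matplotlib 3.10.9.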

Additional observations from a re-analysis of the deposited data

How the results depend on the processing

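Over 13 alternatives (12 for C5ar1, C4b and Cd55, which the 75th percentile filter removed), the directions of the 6 myeloid genes and of Cd55 were kept, and none of the 8 genes passed an adjusted p of 0.05. C4b, with a difference of 0.01, turned to -0.015 after a second quantile normalisation and -0.02 after median centring, and ran from -0.15 to 0.17 with single arrays left out. Leaving out single arrays gave 975 to 1535 genes at an unadjusted p under 0.05 (975 without control replicate 1), a myeloid median of 1.08 to 1.30 and a median of the wider complement list of -0.028 to 0.082. With the 75th percentile filter, which tests fewer genes, these were 929, 1.16 and 0.11, and no stromal gene was left. With the title number as a replicate block, 1527 genes had an unadjusted p under 0.05 and the myeloid median was 1.09. The labels do not say that a title number marks a pair, so the numbers were not taken as pairs. The deviations of same-numbered arrays correlated at 0.045 over the genes tested, a value that cannot exclude pairing. The count of myeloid genes that read higher, a result added after seeing the data, was 6 of 6 throughout, or 5 of 5 with that filter. Where 1 array remained in a group, its variance was taken from the other. Background signal was not used here, and values near 3.02 may understate differences.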

Other observations

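Markers of lymphocytes were near the lower end of the scale. Of 8 measured T and B cell markers, 0 reached the filter level, and Cd3e, a T cell receptor component, read 2.73 and 2.77 in control cells and 2.66 and 3.56 in knockout cells, so that it was higher in knockout replicate 2 alone. Fibroblast markers went both ways, with 6 of 9 higher. Of the 8 tested, 3 read higher without overlap (16.7% of all genes tested), with Col3a1 the farthest at 1.18. Only Dpt, at -1.51, read lower without overlap (27.5% of all genes tested). Dcn, the proteoglycan decorin, read 7.66 and 8.60 in control cells and 8.82 and 8.37 in knockout cells, with overlapping groups, and Col1a1 read 7.98 and 8.05 against 8.33 and 8.27, a difference of 0.29.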
